A study of Mus musculus with 9 samples.

Results

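The comparison described here sets mouse islets kept at 20 mM glucose against the mean, on the log scale, of islets kept at 11.8 mM and at 35 mM glucose. It asks which transcripts are higher or lower at the middle concentration than both ends together would give. It used all 9 samples of the 9 in the series, 3 at each concentration, and all 9739 genes that passed the filter on low counts, of 22048 counted. A gene that climbs by equal log2 steps has a value of 0 in this contrast. A gene that has already risen at 20 mM and then holds its level, or that peaks there, has a positive value. One that has already fallen, that dips at 20 mM, or that rises only between 20 and 35 mM has a negative one. The logarithmic spacing of the concentrations is nearly even, at 0.76 log2 units from 11.8 to 20 mM and 0.81 from 20 to 35 mM.

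Islets of Langerhans are clusters of endocrine cells in the pancreas, mostly insulin-secreting beta cells. Glucose that enters a beta cell is broken down by glycolysis and oxidised in mitochondria, which raises calcium and cyclic AMP, releases insulin, and activates transcription factors such as CREB and, through glucose metabolites, ChREBP. High secretory load also draws on the endoplasmic reticulum, where signal peptidase, the translocon and the chaperones of the unfolded protein response handle new proinsulin.

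All islets were wild type, of the outbred ICR stock, were isolated from 9 mice and spent 3 days in RPMI medium with serum, where 11.8 mM is the glucose of the unchanged medium. The labels name 35 mM for the highest group, except for the treatment text, which writes 25 mM, and 35 mM was followed. The labels do not say whether each library holds 1 mouse, so p-values measure the spread between these samples. RNA was read by CEL-Seq2, a 3′ end method with molecular tags, and each sample was sequenced as 3 barcoded sub-libraries, summed here. Summed gene counts ran from 3228648 to 4559561 per sample, with 13366 to 13923 genes detected. Values are CPM, gene counts scaled to a common library size after TMM normalisation, given for replicates 1, 2 and 3 in turn, and differences are log2 values with the standard error (SE) of the fit. A gene is called where the Benjamini-Hochberg adjusted p of edgeR's quasi-likelihood F test over all genes tested is under 0.05.

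The beta cell genes Ins1 and Ins2 together took 49.2 to 57.5% of gene counts at 11.8 mM, 48.3 to 53.3% at 20 mM and 49.6 to 54.3% at 35 mM. Sub-library 3 of the first replicate at 11.8 mM and of the first at 35 mM stood apart from the rest. At 11.8 mM it had a low Ins1, at 11.8% of its gene counts, with Ins2 at 31.9%. At 35 mM it had a low Ins2, at 10.6%, with Ins1 at 30.8%. Alignments that were not unique made up 35.2% and 39.5% of their totals, against 11.3 to 17% in the other sub-libraries. The 22 acinar (digestive enzyme) markers summed to 0.386 to 1.41% of counts at 11.8 mM, 0.79 to 1.44% at 20 mM and 0.77 to 1.26% at 35 mM. The 14 fibroblast and stellate cell markers summed to 0.0336 to 0.0678%, 0.0271 to 0.0438% and 0.0292 to 0.0489% in the same order. These are bulk samples, in which fewer cells of a type and less RNA per cell cannot be told apart.

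At 20 mM against the mean of the ends, 1 gene was called higher (0.0103% of genes tested) and 0 were called lower (0%). The called gene was Pdyn, which encodes prodynorphin, the precursor of opioid peptides, on chr2:129686565-129699844, minus strand (GRCm38). Its libraries stood at 172, 182 and 137 CPM at 11.8 mM, 378, 393 and 354 CPM at 20 mM and 400.1, 330.4 and 340.0 CPM at 35 mM. All libraries at 20 mM and 35 mM lay above all those at 11.8 mM, while the 20 mM and 35 mM libraries overlapped. The contrast was 0.63 ± 0.11 (SE, adjusted p = 0.0378), made of a first step of 1.20 ± 0.14 (SE, adjusted p = 3.09e-06) and a second step of -0.07 ± 0.13 (SE, adjusted p = 0.982), with a 95% interval of -0.34 to 0.20 for the second. The call thus rested on a rise over the first step, with no called change over the second.

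The call on Pdyn was kept in 12 of 22 alternative analyses, and its value stayed between 0.47 and 0.80, with adjusted p between 6.53e-06 and 0.529. Leaving out replicate 3 at 11.8 mM, any replicate at 20 mM, or replicate 2 or 3 at 35 mM each ended it, with values of 0.57, 0.63, 0.60, 0.67, 0.61 and 0.62 in that order. With the summed acinar level as a covariate it stood at 0.58 (edgeR adjusted p = 0.126).

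Before adjustment, 278 genes (2.85%) were higher and 222 (2.28%) lower at 20 mM with p under 0.05, or 5.13% of genes tested in all. All 3 libraries at 20 mM lay above all 6 of the ends for 122 genes (1.25%) and below them for 122 (1.25%). DESeq2, run as an alternative, called 5 genes higher and 0 lower at 20 mM against the ends: Pdyn, Dapl1, Pcsk1, Sec11c and Pdia6. The median standard error of the contrast over genes was 0.22, and the called contrast was 0.63.

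The same fit called 84 genes at 35 against 11.8 mM (0.863%), 61 higher (0.626%) and 23 lower (0.236%), 18 genes at 20 against 11.8 mM (0.185%) and 3 at 35 against 20 mM (0.0308%). A test for any difference among the concentrations called 59 (0.606%). The 2 steps share the 20 mM libraries, so a library that reads high at 20 mM raises the first step and lowers the second. Genes were put into shapes by their fitted steps, as a description with no test. A gene was early where the second step was under 0.4 of the first in size, late where the first was under 0.4 of the second, graded where both had 1 sign and neither was that small, and a peak or dip where they had opposite signs and neither was that small. Of all genes tested, called or not, 12.9% had the shape of an early rise, 10.1% that of a late rise, 17.5% that of a peak and 19% that of a dip.

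Among the 84 genes called between the ends, 27 had an early rise, 31 a graded rise, 3 a late rise, 4 an early fall, 19 a graded fall, and 0 a late fall, a peak or a dip. A gene that returns to its first level has no difference between the ends, so this selection leaves little room for the last 2. The test for any difference has no such limit, and of its 59 genes 0 were peaks or dips, against 21 early rises, 24 graded rises, 2 late rises, 4 early falls and 8 graded falls. Of the 18 genes called over the first step, 13 were early rises, 2 early falls, 1 a graded rise, 1 a graded fall and 1, Pdia6, had the shape of a peak.

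The median gene that rose between the ends had made most of its change by 20 mM. For the 61 risers the median first step was 0.61 and the median second step 0.25, and the median gene stood at 68.2% of its log2 rise at 20 mM. The contrast was positive in 46 of the 61 (75.4%), with a median of 0.15, against 50.8% of all genes tested and a median of 0.00. For the 23 fallers the median steps were -0.51 and -0.41, the median share was 60.5%, and 15 of 23 had a negative contrast. Of the 61, 13 were called over the first step and 3 over the second, and of the 23 these numbers were 2 and 0. On the map of both steps, risers with the larger change in the first step lie to the right of the line of equal steps. Fallers with the larger change in the first step lie to its left.

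**Figure D1:**
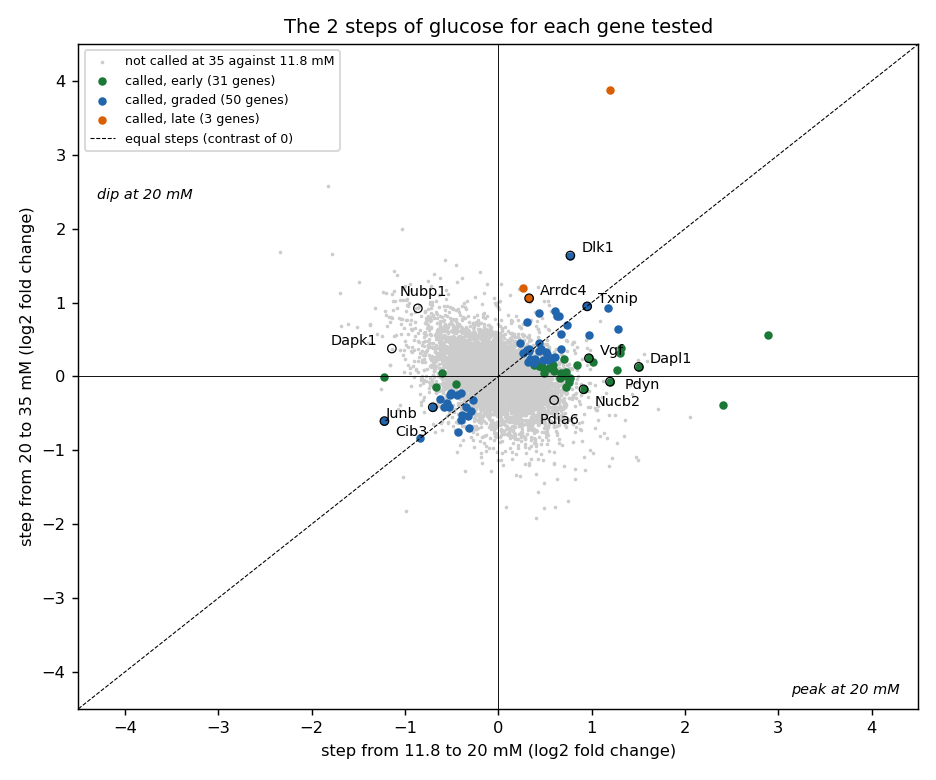
Step from 11.8 to 20 mM (x axis) and from 20 to 35 mM (y axis), both as log2 fold changes, for each of 9739 genes; colours mark the shapes of the 84 genes called at 35 against 11.8 mM, rings mark labelled genes, and the dashed line marks equal steps. Early risers such as Pdyn and Dapl1 lie along the horizontal axis, Txnip lies on the dashed line, and Dlk1 and Arrdc4 lie above it.

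Dapl1, a death-associated protein-like gene on chr2:59484653-59505020, plus strand, read 62.4, 44.7 and 39.6 CPM at 11.8 mM, 134, 165 and 117 CPM at 20 mM and 137, 161 and 157 CPM at 35 mM. The groups at 11.8 and 20 mM did not overlap and those at 20 and 35 mM did. Its contrast of 0.69 ± 0.13 (SE, adjusted p = 0.0591) fell just short of a call, and it was called in 7 of 22 alternatives. Its first step was 1.5 ± 0.16 (SE, adjusted p = 2.13e-06) and its second 0.13 ± 0.15 (SE), with an interval of -0.18 to 0.44.

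Nucb2, the precursor of nesfatin-1, lies on chr7:116504369-116540584, plus strand, and read 50.6, 49.3 and 50.4 CPM at 11.8 mM, 117, 84.6 and 82.1 CPM at 20 mM and 75.9, 85.4 and 89.5 CPM at 35 mM. Every library at 20 mM exceeded every one at 11.8 mM, and replicate 1 at 20 mM stood above all others. The first step was 0.91 ± 0.15 (SE, adjusted p = 0.00237), and the contrast, 0.54 ± 0.12 (SE, adjusted p = 0.388), was not called.

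Vgf, a granule protein that is cut into several neuroendocrine peptides, read 82.1, 81.7 and 50.7 CPM at 11.8 mM, 112, 156 and 153 CPM at 20 mM and 173, 174 and 152 CPM at 35 mM. It rose over the first step by 0.97 ± 0.16 (SE, adjusted p = 0.00526) and stood at 79.8% of its rise at 20 mM, with a contrast of 0.36 ± 0.14 (SE, adjusted p = 0.902). The libraries at 20 and 35 mM overlapped.

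Pcsk1, the prohormone convertase that makes the first cuts in proinsulin, read 121, 121 and 131 CPM at 11.8 mM, 244, 195 and 189.5 CPM at 20 mM and 185, 205 and 209 CPM at 35 mM. Its first step was 0.75 ± 0.13 (SE, adjusted p = 0.00543) and its second -0.07 ± 0.13 (SE; interval -0.34 to 0.20). Chgb, the granule protein chromogranin B, read 969, 897 and 750.2 CPM at 11.8 mM, 1506, 1422 and 1396 CPM at 20 mM and 1598, 1376 and 1529.7 CPM at 35 mM. Its steps were 0.73 ± 0.13 (SE, adjusted p = 0.00576) and 0.06 ± 0.13 (SE; interval -0.20 to 0.32), so these convertase and cargo genes had both risen by 20 mM. Neither contrast was called, at 0.41 ± 0.11 (SE, adjusted p = 0.744) and 0.33 ± 0.11 (SE, adjusted p = 0.866).

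Sec11c, a catalytic subunit of the signal peptidase, read 1523, 2223 and 1917 CPM at 11.8 mM, 3169, 3413 and 2739.6 CPM at 20 mM and 2758, 2813 and 2878 CPM at 35 mM. Its first step was 0.72 ± 0.14 (SE, adjusted p = 0.0116), and its call between the ends was kept in 9 of 19 alternatives. Tnfrsf23, a decoy receptor of the TNF receptor family, read 11.7, 11.8 and 5.83 CPM at 11.8 mM, 25.3, 20.5 and 26.2 CPM at 20 mM and 30.3, 24.1 and 21.6 CPM at 35 mM, and Slco1a5, an organic anion transporter, read 6.66, 7.18 and 12.2 CPM at 11.8 mM, 18.5, 20.0 and 25.1 CPM at 20 mM and 29.2, 24.1 and 25.8 CPM at 35 mM. Both rose over the first step, by 1.27 ± 0.23 and 1.30 ± 0.23 (SE; edgeR adjusted p = 0.00576 and 0.00543). Each has close relatives in the genome, between which 3′ reads can be split, so their counts are less certain.

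Tent5a, a poly(A) polymerase, and Ttr, the thyroid hormone carrier transthyretin, also rose over the first step, by 0.85 ± 0.18 and 0.60 ± 0.13 (SE; edgeR adjusted p = 0.0489 for each). Pycr1, the last enzyme of proline synthesis, stood at 74.7% of its rise at 20 mM, but its first step alone was 0.71 ± 0.16 (SE, adjusted p = 0.0573). Over the 27 early risers the share of the rise present at 20 mM ran from 71.5 to 124.6%, with a median of 88.3%. Of these, 12 were called over the first step and 0 over the second, and 0 had an unadjusted p under 0.05 in the second. Since the shape is defined by the steps, these counts of calls and the size of the contrast follow in part from the selection. In this group they are a description.

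**Figure D2:**
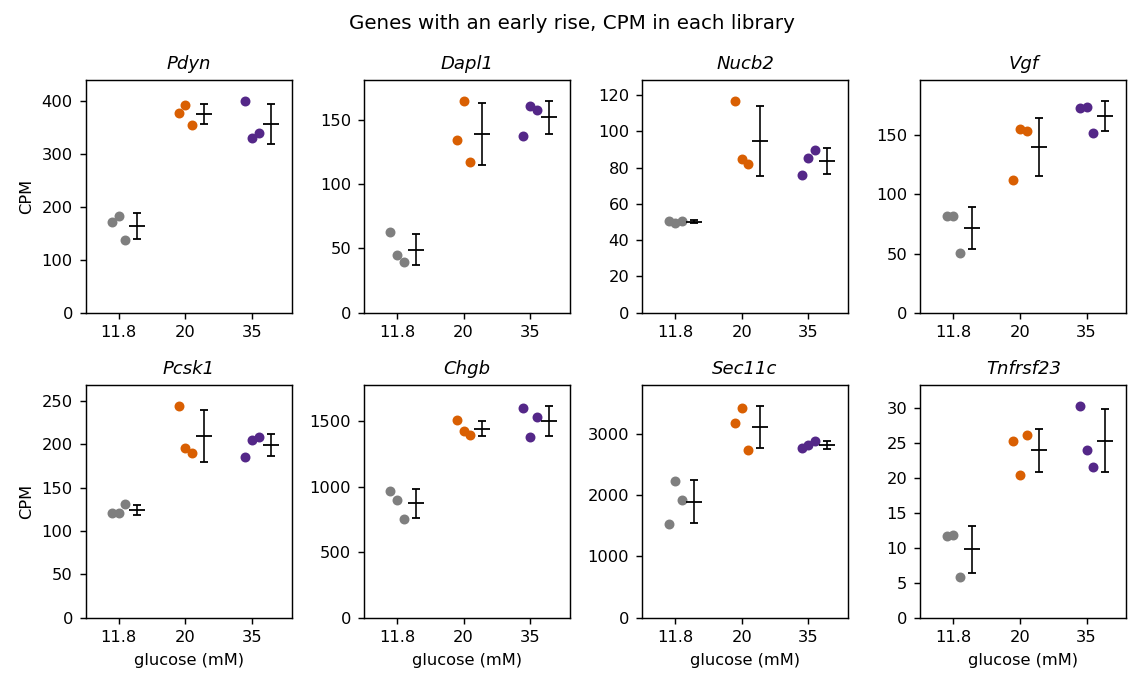
CPM (y axis, from 0) against glucose in mM (x axis) for 8 early risers; points are libraries and the bar beside them is the mean with 1 SD (n = 3). In each panel the libraries at 20 mM lie above those at 11.8 mM and near or among those at 35 mM.

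Falls that were complete by 20 mM were few. Gstm1, a glutathione transferase with close relatives in the genome, read 148, 159 and 169.8 CPM at 11.8 mM, 89.6, 106 and 117 CPM at 20 mM and 111, 114 and 97.4 CPM at 35 mM. Its first step was -0.61 ± 0.13 (SE, adjusted p = 0.0489) and its second 0.05 ± 0.14 (SE). Fbxo44, an F-box protein of a ubiquitin ligase, and Bpnt1, a nucleotidase, were early falls between the ends, at -0.81 ± 0.17 (SE, adjusted p = 0.00865) and -0.55 ± 0.14 (SE, adjusted p = 0.0473), without a call over the first step. Dapk1, a calcium/calmodulin-regulated kinase linked to cell death, read 17.9, 18.1 and 19.5 CPM at 11.8 mM, 7.39, 9.10 and 8.46 CPM at 20 mM and 10.7, 11.3 and 10.5 CPM at 35 mM. Its 20 mM libraries lay below all 6 others. Its first step was -1.14 ± 0.22 (SE, adjusted p = 0.0116). Between the ends Dapk1 was not called, at -0.76 ± 0.21 (SE, adjusted p = 0.0866). The second step of 0.38 ± 0.23 (SE, adjusted p = 0.932) and the contrast of -0.76 ± 0.20 (SE, adjusted p = 0.694) were not called.

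Promoter windows are shown for the early risers with a full cyclic AMP response element and for the genes that stand for the peak and late shapes. They come from RefSeq (GRCm38.p6), run 5′ to 3′ from upstream of the start into the first transcribed bases, and carry the motif, or its core, in capitals. The motifs searched on both strands were the CREB element TGACGTCA, its core TGACG, which lies within the full element, the E-box CACGTG, which is part of the element ChREBP binds, the AP-1 element TGANTCA, where N is any base, and the endoplasmic reticulum stress element (ERSE), which the factors of the unfolded protein response bind.
Pcsk1, chr13:75089607-75089906, plus strand: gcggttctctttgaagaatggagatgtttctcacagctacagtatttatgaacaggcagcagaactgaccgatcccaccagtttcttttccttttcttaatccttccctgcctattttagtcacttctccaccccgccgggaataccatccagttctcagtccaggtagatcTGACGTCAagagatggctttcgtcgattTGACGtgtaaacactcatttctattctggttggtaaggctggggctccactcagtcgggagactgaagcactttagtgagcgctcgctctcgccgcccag
Chgb, chr2:132781392-132781691, plus strand: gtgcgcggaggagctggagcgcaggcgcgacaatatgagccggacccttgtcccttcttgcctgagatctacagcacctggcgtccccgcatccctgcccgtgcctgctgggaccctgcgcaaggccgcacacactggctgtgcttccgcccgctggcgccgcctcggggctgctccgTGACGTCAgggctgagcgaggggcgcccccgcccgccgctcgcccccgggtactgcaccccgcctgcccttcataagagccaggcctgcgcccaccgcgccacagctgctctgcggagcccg
Pdia6, chr12:17266339-17266638, plus strand: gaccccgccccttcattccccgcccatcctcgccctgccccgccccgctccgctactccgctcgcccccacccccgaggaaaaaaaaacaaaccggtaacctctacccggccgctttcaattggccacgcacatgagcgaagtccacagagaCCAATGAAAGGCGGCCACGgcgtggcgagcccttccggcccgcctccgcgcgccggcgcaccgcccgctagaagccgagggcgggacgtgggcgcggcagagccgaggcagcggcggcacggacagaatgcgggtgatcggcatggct
Arrdc4, chr7:68749189-68749488, minus strand: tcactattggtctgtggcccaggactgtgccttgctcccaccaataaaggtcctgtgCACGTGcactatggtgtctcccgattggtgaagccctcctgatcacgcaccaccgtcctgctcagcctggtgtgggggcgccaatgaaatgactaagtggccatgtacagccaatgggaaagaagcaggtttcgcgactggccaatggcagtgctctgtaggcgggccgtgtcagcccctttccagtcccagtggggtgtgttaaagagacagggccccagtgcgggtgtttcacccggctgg

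The full CREB element was found in 2 of the 19 early-rise genes with a window, Pcsk1, 78 bases before the start, and Chgb, 72 bases before it, and in 3.31% of the 10070 windows of genes tested. The core was present in 11 of the 19 (57.9%) against 32.1% of those windows. In the other shapes it was in 8 of 23 graded rises (34.8%), 3 of 14 graded falls (21.4%), 2 of 3 early falls (66.7%) and 0 of 2 late rises. The full element was also in 1 of the 23 graded rises (4.35%) and 1 of the 14 graded falls (7.14%). The E-box of Arrdc4 lies 193 bases before the start, and 10.1% of windows of genes tested hold one. The stress element of Pdia6 lies 98 bases before the start, and 0.119% of windows hold one. The AP-1 element was in 1 of the 19 early-rise genes (5.26%) and 4.72% of windows of genes tested. A gene was counted where any of its windows held a match, and Pdyn has 2 windows. Shares of genes and shares of windows are thus not the same measure. The windows of Pdyn, Nucb2 and Txnip hold no exact match to these motifs. Only the exact letters were searched, so elements that differ from them by a base were not seen. The lack of a match in Txnip thus does not show that its window lacks an element for ChREBP. A match is a description of the sequence only.

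At 35 against 20 mM, 3 genes were called, all higher, among them Dlk1 and Txnip, both graded rises by the shape rule. Dlk1, an imprinted gene for a Notch-like membrane protein, read 9.86, 7.18 and 10.5 CPM at 11.8 mM, 16.6, 11.4 and 18.9 CPM at 20 mM and 49.1, 53.1 and 42.9 CPM at 35 mM. The 35 mM libraries stood far above all others, while every 20 mM library also exceeded every one at 11.8 mM. Its second step was 1.64 ± 0.19 (SE, adjusted p = 1.77e-05) and its first 0.77 ± 0.23 (SE, adjusted p = 0.222), so 32.0% of the log2 rise was present at 20 mM. The contrast was -0.43 ± 0.18 (SE, adjusted p = 0.919), not a call.

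Arrdc4, an arrestin-domain relative of Txnip that restrains glucose uptake, read 4.26, 3.24 and 4.66 CPM at 11.8 mM, 6.47, 3.79 and 5.08 CPM at 20 mM and 11, 9.87 and 10.8 CPM at 35 mM. Its counts at 11.8 and 20 mM overlapped and those at 35 mM lay above both. It was called between the ends, at 1.39 ± 0.30 (SE, adjusted p = 0.0112), with 23.7% of the rise present at 20 mM, but its second step, 1.06 ± 0.29 (SE, adjusted p = 0.569), and its contrast, -0.36 ± 0.27 (SE, adjusted p = 0.933), were not called. Frmd5, a FERM-domain protein, had the same shape, a late rise, with 18.1% of its rise of 1.46 ± 0.36 (SE, adjusted p = 0.0414) present at 20 mM.

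Txnip, the thioredoxin-interacting protein and a classical glucose-induced gene of islets, was graded. It read 13.3, 12.5 and 13.4 CPM at 11.8 mM, 21.9, 27.5 and 26.2 CPM at 20 mM and 51.3, 50.8 and 44.3 CPM at 35 mM, and no libraries of different concentrations overlapped. Both steps were called, at 0.95 ± 0.18 (SE, adjusted p = 0.0116) and 0.95 ± 0.16 (SE, adjusted p = 0.00750). The contrast was 0.00 ± 0.12 (SE), with a 95% interval of -0.24 to 0.25. The counted exons of Txnip overlap a predicted gene on the opposite strand.

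Other graded risers were the water channel Aqp4, at 14.9, 17.4 and 23.6 CPM at 11.8 mM, 22.5, 33.1 and 31.3 CPM at 20 mM and 65.2, 41.8 and 46.3 CPM at 35 mM, and, in values of 35 against 11.8 mM, Hap1 (huntingtin-associated protein, 0.83 ± 0.13), Wipi1 (autophagy, 0.89 ± 0.14) and Col27a1 (a fibrillar collagen, 1.03 ± 0.16, each with SE). Their contrasts were -0.08 ± 0.17, 0.04 ± 0.11, -0.01 ± 0.12 and 0.15 ± 0.14 (SE), none called. Of the graded fallers, Cib3, a calcium and integrin-binding protein, read 20.8, 15.3 and 21.0 CPM at 11.8 mM, 8.93, 8.09 and 7.33 CPM at 20 mM and 7.51, 4.06 and 4.26 CPM at 35 mM. It was called over the first step, at -1.22 ± 0.25 (SE, adjusted p = 0.0193). Junb, a subunit of the AP-1 transcription factor, read 40.5, 52.3 and 70.2 CPM at 11.8 mM, 31.4, 32.3 and 36.1 CPM at 20 mM and 29.5, 21.8 and 23.3 CPM at 35 mM, and fell between the ends with a value of -1.12 ± 0.18 (SE, adjusted p = 6.15e-04). Exons of Junb overlap those of Prdx2 on the opposite strand.

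**Figure D3:**
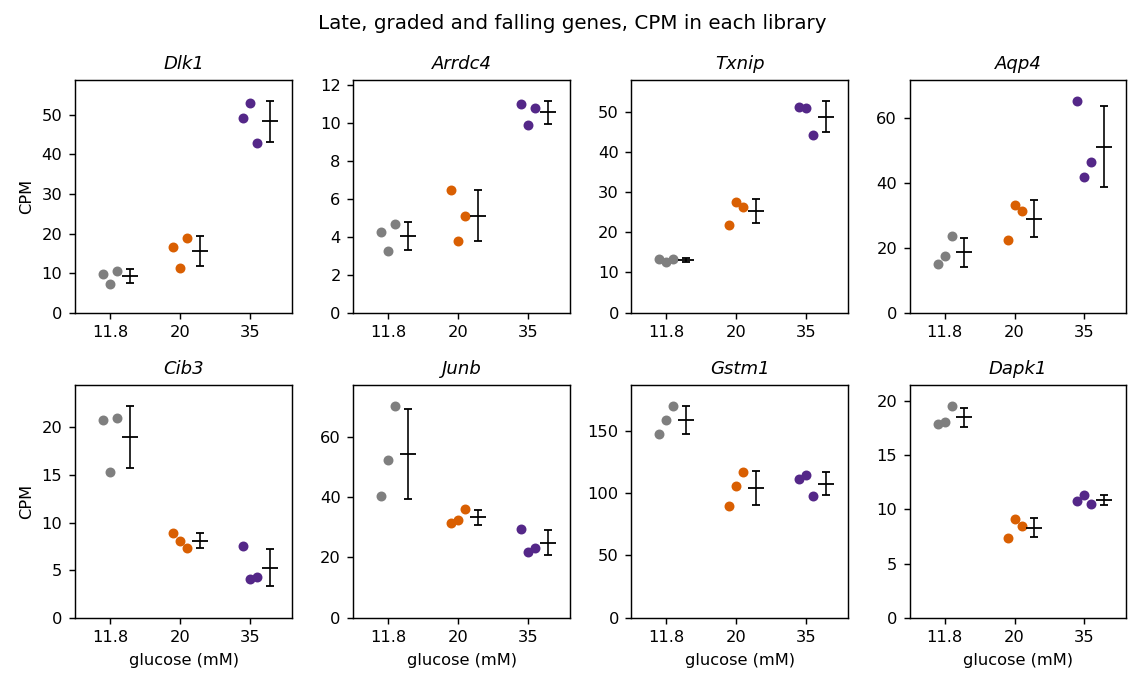
CPM (y axis, from 0) against glucose in mM (x axis) for 8 late, graded or falling genes; points are libraries and the bar beside them is the mean with 1 SD (n = 3). Dlk1 and Arrdc4 stand apart at 35 mM, Txnip climbs in 2 like steps, and Gstm1 and Dapk1 are already down at 20 mM.

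No peak was called, and the genes with this shape, a mean of at least 10 CPM and the smallest p of the contrast are given as a description. Pdia6, a protein disulfide isomerase of the endoplasmic reticulum, read 1127, 1089 and 1259 CPM at 11.8 mM, 1960.3, 1675 and 1618 CPM at 20 mM and 1567, 1400.3 and 1238 CPM at 35 mM. All 20 mM libraries lay above all 6 others. The first step was called, at 0.60 ± 0.13 (SE, adjusted p = 0.0489), while the second was -0.32 ± 0.13 (SE, adjusted p = 0.905) and the contrast 0.46 ± 0.11 (SE, adjusted p = 0.550); DESeq2 called the contrast, with an adjusted p of 0.00183. Exons of Pdia6 overlap those of Atp6v1c2 on the opposite strand, and reads of the 2 genes cannot be told apart without knowing the strand setting.

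Mrpl47, a protein of the mitochondrial ribosome, read 19.5, 19.7 and 23.3 CPM at 11.8 mM, 30.5, 27.8 and 38.9 CPM at 20 mM and 21.2, 21.8 and 23.9 CPM at 35 mM, with a contrast of 0.59 ± 0.15 (SE, adjusted p = 0.661). Copg2, a subunit of the COPI vesicle coat, had a contrast of 0.57 ± 0.16 and Spon2, a secreted matrix protein, one of 0.62 ± 0.17 (SE; edgeR adjusted p = 0.793 and 0.744). In all 3 the 20 mM libraries lay above all others. Gc, the vitamin D binding protein, at 0.45 ± 0.13 (SE), had the shape of an early rise. With an unadjusted p under 0.05 in both steps and in the contrast, 29 of the 9739 genes tested were peaks and 50 were dips. Of these, 15 peaks and 26 dips had a mean of at least 10 CPM.

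No dip was called either. The smallest p belonged to Nubp1, an ATPase of iron-sulfur cluster assembly, which read 20.8, 19.7 and 17.2 CPM at 11.8 mM, 7.39, 15.4 and 8.46 CPM at 20 mM and 17.4, 20.9 and 21.9 CPM at 35 mM. Replicate 2 at 20 mM stood near the other groups. Its contrast was -0.89 ± 0.21 (SE, adjusted p = 0.411), with steps of -0.86 ± 0.23 and 0.92 ± 0.23 (SE). Zc3h7b, a zinc finger protein, read 28.3, 24.1 and 21.3 CPM at 11.8 mM, 16.9, 16.9 and 18.0 CPM at 20 mM and 27.1, 27.6 and 32.7 CPM at 35 mM, with a contrast of -0.63 ± 0.16 (SE, adjusted p = 0.661). Its 20 mM libraries were close together and below all 6 others.

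Tuft1 (-0.74), Cmtm3 (-0.85), the growth factor carrier Igfbp5 (-0.71), the endothelial membrane protein Heg1 (-0.49), the vesicle protein Syngr1 (-0.62), Zfp771 (-0.50) and the tyrosine phosphatase Ptpn12 (-0.41) are the next dips in order of p with a mean of at least 10 CPM, all as log2 contrasts. Their adjusted p-values in edgeR were between 0.744 and 0.814. In the analysis without a filter on low counts, Nubp1 and Igfbp5 were called. Mrpl47, Copg2, Nubp1, Zc3h7b and Heg1 overlap exons of genes on the opposite strand. So do Pklr, Crem, Hsp90b1, Uqcrb and Fn1, which are named in the gene lists.

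**Figure D4:**
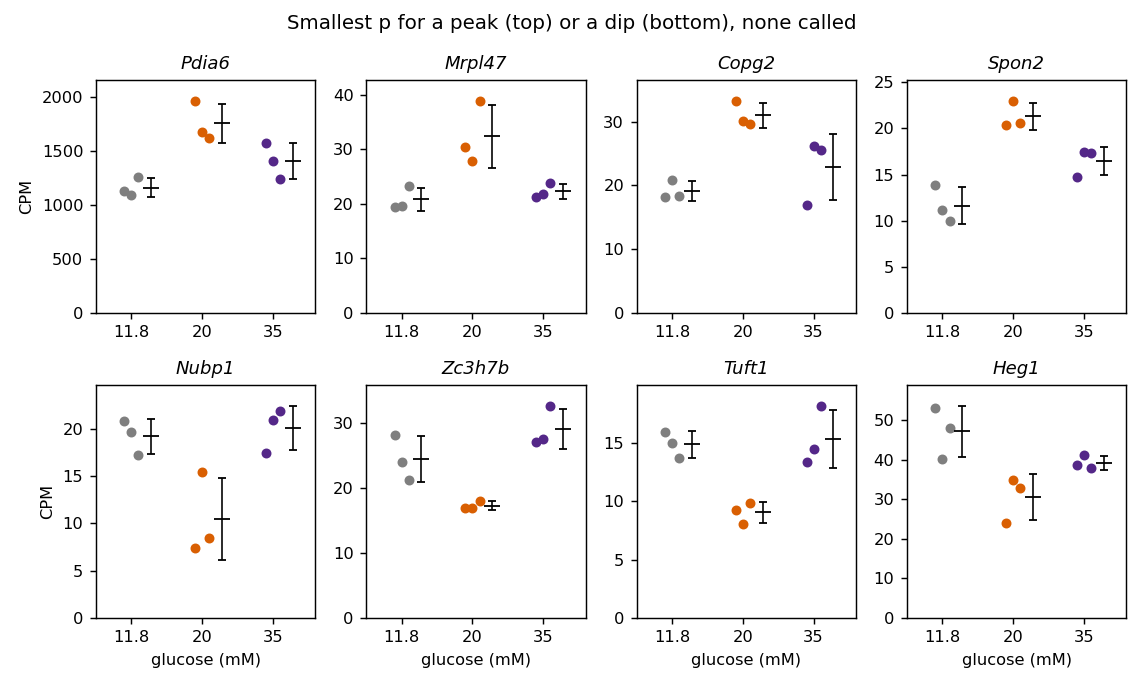
CPM (y axis, from 0) against glucose in mM (x axis) for 4 genes with the shape of a peak (top) and 4 with that of a dip (bottom); points are libraries and the bar beside them is the mean with 1 SD (n = 3). The 20 mM libraries stand above or below both ends in each panel, but none of the 8 contrasts was called.

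Lists of genes by function are described by their counts and medians, with no test. Over all genes tested the median contrast was 0.00, and 4946 of 9739 were positive. Of the 17 genes of signal peptidase and translocon, 14 were positive and 3 negative, with a median of 0.21 (from 0.38 over the first step and -0.05 over the second); 10 had an early rise, a shape of 12.9% of all genes tested. Beside Sec11c, the signal peptidase subunit Spcs1 stood at 0.27 ± 0.11, the channel subunit Sec61g at 0.31 ± 0.12 and the translocon-associated Ssr3 at 0.35 ± 0.12 (SE). The 22 genes of the unfolded protein response had 19 positive, a median of 0.18 (from 0.26 over the first step and -0.10 over the second) and 7 peak shapes, against 17.5% of all genes tested. The chaperones Hsp90b1 and Hspa5 stood at 0.31 ± 0.10 and 0.28 ± 0.10 (SE). None of these members was called in the contrast. The medians ran from 0.16 to 0.31 and from 0.11 to 0.24 over the alternatives.

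Genes of respiration and protein turnover had smaller positive medians. Nuclear genes of oxidative phosphorylation were positive in 21 of 26, with a median of 0.13 (from 0.20 over the first step and -0.05 over the second), led by the complex I subunit Ndufa1 (0.39 ± 0.11, SE) and the complex III subunit Uqcrb (0.33 ± 0.12, SE). Mitochondrially encoded transcripts were positive in 13 of 13, with a median of 0.15 (from 0.09 over the first step and -0.22 over the second), so that their second step was the larger; mt-Nd2 stood at 0.32 ± 0.13 (SE). These transcripts summed to 5.7 to 6.51% of counts at 11.8 mM, 5.82 to 7.24% at 20 mM and 5.13 to 6.04% at 35 mM. Ribosomal proteins were positive in 25 of 28 (median 0.11), and proteasome subunits in 13 of 18 (median 0.13; Psma2 0.39 ± 0.15, SE). None of these members was called. Over the alternatives the medians ran from 0.08 to 0.17 for oxidative phosphorylation, 0.07 to 0.21 for mitochondrially encoded transcripts, 0.06 to 0.20 for ribosomal proteins and 0.00 to 0.23 for the proteasome, the last being near 0 with 1 of the 3 barcoded sub-libraries alone. Without replicate 1 at 20 mM the first 3 of these medians were 0.08, 0.07 and 0.06. The mitochondrially encoded median was 0.10 without replicate 1 at 11.8 mM and 0.10 without replicate 1 at 35 mM. The ribosomal median was 0.06 and 0.18 without replicate 1 or 2 at 11.8 mM, 0.20 without replicate 3 at 20 mM and 0.06 with the acinar covariate. The proteasome median was 0.07 without replicate 1 at 11.8 mM and 0.07 without replicate 2 at 20 mM.

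Glycolysis leaned the other way. Its 14 tested genes had a negative contrast in 14 of 14, with a median of -0.22 (from -0.18 over the first step and 0.21 over the second), and 0 were called. The pyruvate kinases Pklr and Pkm stood at -0.66 ± 0.30 and -0.28 ± 0.13, and the phosphofructokinase Pfkp at -0.44 ± 0.21 (SE). Without replicate 2 at 11.8 mM the median was -0.03. The 17 targets of ChREBP had 14 negative, a median of -0.20 (from -0.01 over the first step and 0.39 over the second) and 8 late-rise shapes, against 10.1% of all genes tested. Their median ran from -0.25 to -0.08 over the alternatives and was -0.13 without replicate 1 at 20 mM, and 0 were called.

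Genes induced by CREB and calcium had 10 of 13 positive, with 1 called (Pdyn), 9 early rises (12.9% of all genes tested had this shape) and a median of 0.12 (from 0.19 over the first step and 0.01 over the second). The median ran from 0.08 to 0.34 over the alternatives and was 0.20 without replicate 3 at 35 mM. Crem, a cyclic AMP-responsive factor, had a contrast of 0.41 ± 0.14 (SE) and a first step of 0.74 ± 0.17 (SE, adjusted p = 0.0632). Serpini1, the secreted inhibitor neuroserpin, was called over the first step, at 0.66 ± 0.14 (SE, adjusted p = 0.0366). Neuropeptide and gut hormone precursors were positive in 10 of 15 (median 0.08, 1 called, Pdyn) and secretory granule proteins in 16 of 21 (median 0.05, 0 called). Over the alternatives these medians ran from 0.00 to 0.19 and from 0.04 to 0.12, the precursor median being lowest without replicate 1 at 20 mM and highest without replicate 3 at 35 mM. Immediate early genes were negative in 10 of 13 (median -0.11, 0 called), with the median fall in the first step (-0.30), and the median was positive with 1 of the sub-libraries alone.

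Other lists had 0 members called in the contrast. Given as genes with a positive contrast of those tested and the median log2 contrast, these were exocytosis machinery (4 of 14, -0.10), beta cell identity (6 of 17, -0.10), dedifferentiated beta cells (4 of 13, -0.09), the integrated stress response (7 of 19, -0.10), cholesterol and fatty acid synthesis (10 of 19, 0.01), the hexosamine pathway (5 of 6, 0.10) and polyamine and proline synthesis (4 of 10, -0.04). The rest were antioxidant enzymes (10 of 20, 0.00), the cell cycle (13 of 18, 0.15), p53 and apoptosis (4 of 13, -0.06), heat shock proteins (7 of 13, 0.03), alpha cells (6 of 10, 0.01) and delta and PP cells (6 of 6, 0.13). Acinar markers were positive in 19 of 20, with a median of 0.35 (from 0.39 over the first step and -0.30 over the second) that ran from -0.02 to 0.84 over the alternatives, and Cela2a stood at 0.66 ± 0.38 (SE). Fibroblast and stellate cell markers had a median of -0.23 (3 of 10 positive), with Lum at 1.14 ± 0.48 and Fn1 at -0.59 ± 0.26 (SE). Immune cell markers had a median of -0.11 (4 of 13 positive) and duct cell markers one of 0.09 (7 of 9). The 4 endothelial markers tested had a median of -0.53 (1 of 4 positive), with Flt1 at 0.60 ± 0.35 and Plvap at -0.61 ± 0.43 (SE). None of these markers was called in the contrast. With the summed acinar level as a covariate, the median contrast was 0.22 for signal peptidase and translocon, 0.20 for the unfolded protein response and -0.28 for glycolysis. The part of the other cells in these lists was not tested.

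**Figure D5:**
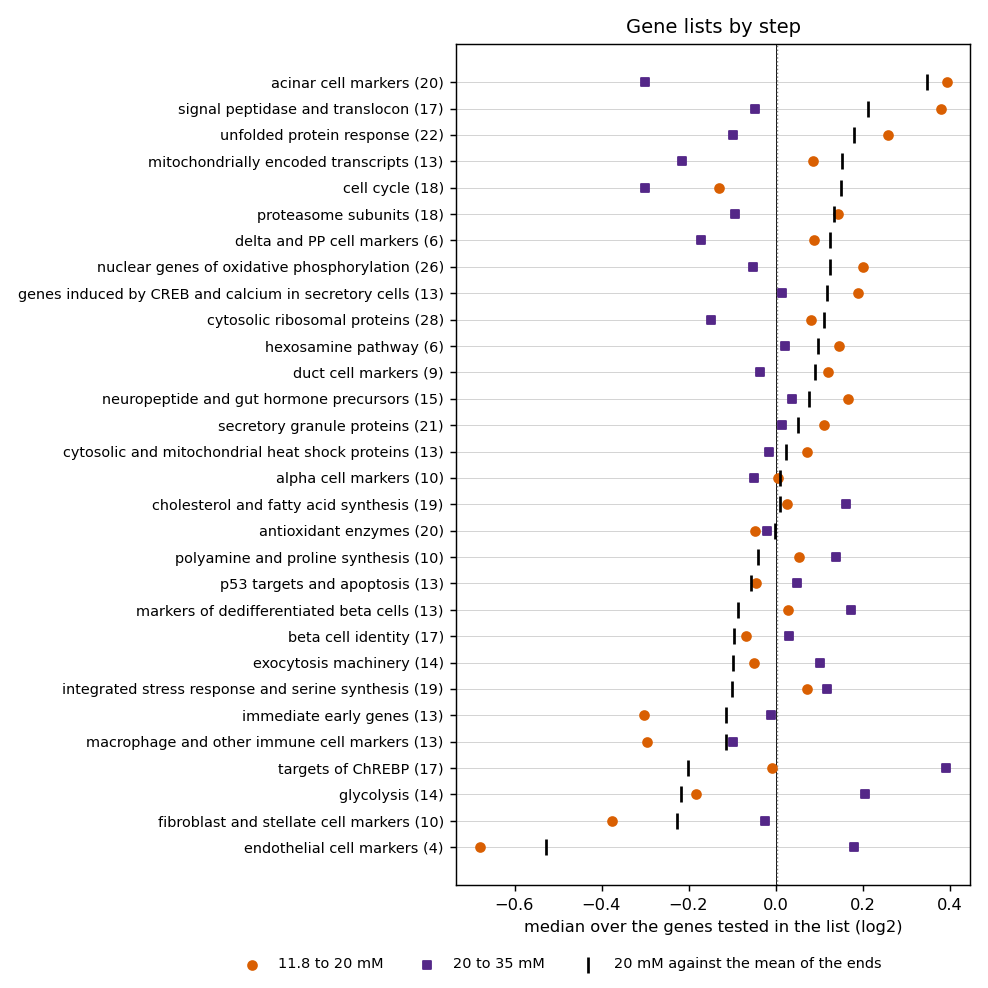
Median log2 change over the genes tested in each list (number in brackets) from 11.8 to 20 mM (circles), from 20 to 35 mM (squares) and at 20 mM against the mean of the ends (bars). Acinar markers, translocon and unfolded protein response genes lie to the right of 0 in the first step and to the left in the second, and glycolysis does the reverse.

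The islet hormones gave no call in the contrast, which was -0.13 ± 0.13 for Ins1, 0.05 ± 0.15 for Ins2, 0.08 ± 0.11 for amylin (Iapp), 0.00 ± 0.11 for glucagon (Gcg), 0.03 ± 0.13 for somatostatin (Sst) and 0.21 ± 0.14 for pancreatic polypeptide (Ppy), all with SE. The 95% intervals were -0.38 to 0.13 for Ins1 and -0.25 to 0.35 for Ins2. Of these genes Iapp was called between the ends, at 0.63 ± 0.13 (SE, adjusted p = 0.00865), and 62.2% of its rise was present at 20 mM. Ins1 and Ins2 are close relatives, between which 3′ reads can be split, so their counts are less certain.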

How the data were processed

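Islet RNA of 9 samples was read by CEL-Seq2. The deposited table holds whole-number counts per gene for 27 sub-libraries, 3 per sample, made by the authors against GRCm38.p4; the submitters' processing notes name cutadapt, TopHat, HTSeq and DESeq2, while the sources used here state neither versions nor a strand setting. A sample sheet deposited with it ties sub-libraries to samples, and 30 columns of other tables tied to no sample were not used. Counts were summed per sample over 22048 genes (21781 with a symbol), leaving out 92 spike-ins and 5 summary lines (the latter 19.64 to 29.86% of each sample's total). Scaling (TMM), filterByExpr and robust quasi-likelihood F tests were run in edgeR 4.0.16 (R 4.3.3), with 1 mean per concentration and 6 residual degrees of freedom, and tested on simulated data. Alternatives included DESeq2 1.42.0, other scalings and filters, single sub-library sets, an acinar covariate and each sample left out. Named genes were the called genes or, per direction, the 10 with the smallest p, the 8 with the smallest p per shape between the ends at a mean of at least 10 CPM, the leading members of each list and a fixed set; Fbxo44, Bpnt1, Frmd5, Spcs1, Sec61g, Hspa5, Pfkp, Crem, Serpini1 and Saa3 were chosen after their values were seen. The members and lists were chosen with earlier results of these data known. Some genes under this rule are left unreported. Replicates differed beyond sampling noise, and intervals cover counting and replicate error.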

Additional observations from a re-analysis of the deposited data

How the results depend on the processing

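The count of genes called at 20 mM against the ends was 1 in the reported fit, 4 without a filter on low counts (2 higher, 2 lower), 5 in DESeq2, 2 without the 2 unusual sub-libraries, 3 and 2 with the ends interpolated in mM or in log concentration, and 0 with the acinar covariate. Single sub-library sets, which hold fewer counts, gave 2, 0 and 0. No alternative turned a gene called between the ends into a peak or a dip, shapes for which that selection leaves little room. In the contrast itself, DESeq2 called Pdia6, with the shape of a peak. The fit without a filter called Nubp1 and Igfbp5, with that of a dip. Leaving out 1 library gave 0 to 2 genes, and without replicate 3 at 35 mM the call was a dip in Saa3 (-2.45). Genes with any difference then numbered 34 to 75, those called at 35 against 11.8 mM 41 to 138, at 20 against 11.8 mM 7 to 35 and at 35 against 20 mM 1 to 7; early, graded and late shapes numbered 13 to 50, 27 to 81 and 1 to 12. The count at 35 against 11.8 mM was 138 and 47 when replicate 1 or 3 at 11.8 mM was dropped and 41 and 54 when replicate 1 or 2 at 35 mM was dropped. That at 20 against 11.8 mM was 35 when replicate 2 at 11.8 mM was dropped and 7 and 9 when replicate 1 or 3 at 20 mM was dropped. The causes were not tested.

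Without the filter, 126 genes differed among concentrations, 148 between the ends (56 early, 80 graded, 12 late) and 51 over the first step, for which DESeq2 gave 51. In sub-library sets 1, 2 and 3 alone, 8, 29 and 32 genes differed and 12, 42 and 39 were called between the ends (early 4, 17 and 14; graded 7, 22 and 24; late 1, 3 and 1). Over the first step set 1 gave 2 and set 2 gave 8, and each set gave 1 over the second. Without the 2 unusual sub-libraries, 68 genes were called between the ends and 17 over the first step. The acinar covariate gave 11 and 7 over the steps and 7 late genes. A ratio of 0.2 in place of 0.4 left 19 early and 0 late genes, and 0.6 gave 47 early, 28 graded and 9 late.

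Median contrasts that moved past the median SE of their members were those of immediate early genes (0.0808), hexosamine genes (-0.15) and CREB and calcium genes (0.264) in set 1; proteasome (0.00029), cell cycle (-0.168) and endothelial (0.388) genes in set 2; and CREB and calcium genes in set 3 (0.341), at 10 CPM (0.327) and without the 20 most abundant genes (0.331). Endothelial markers stood at -0.114 without a filter and -0.106 in DESeq2, and glycolysis at -0.302 to -0.0257 with 1 library left out. Between the ends, uncalled Ins1 turned to -0.0133 without the unusual sub-libraries and -0.157 and -0.00484 in sets 1 and 2, and Ppy to 0.0695 in set 3. With 1 library left out, Ppy ran from -0.133 to 0.245 and Sst from -0.0219 to 0.285.

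Samples with the same replicate number did not deviate together over genes (9 correlations from -0.146 to 0.0459, 0 above 0.1). Whether they share mice, a day or a batch was not tested. The 2 unusual sub-libraries are both sub-library 3 of replicate 1, at 11.8 and at 35 mM. With a replicate block, 0 genes were called at 20 mM against the ends, 74 between the ends, 13 over the first step and 3 over the second. For named genes, 1367 values kept direction and side of the threshold, 83 lost a call, 13 gained one and 8 changed sign.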
